A study of Mus musculus with 6 samples.

Results

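Extracellular nucleotides are danger signals that macrophages (Mφs) read with P2 receptors and turn into adenosine with ecto-enzymes. The transcripts of 10 genes of this system were followed here in M2 Mφs, chosen by gene symbol from the 41549 genes of the deposited table. They were 2 ATP-gated channels (P2rx4 and P2rx7), 4 G protein-coupled nucleotide receptors (P2ry2, P2ry6, P2ry12 and P2ry14), 2 adenosine receptors (Adora2a and Adora2b) and 2 ectonucleotidases (Entpd1 and Nt5e). All 10 were listed, and 9 had enough reads to be tested. Nt5e did not.

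The cells were bone marrow-derived Mφs of wild type C57BL/6N mice, grown from marrow of adult animals with M-CSF. Naïve Mφs were transfected with a locked nucleic acid antisense against 5′tRF-Glu(CTC), a tRNA fragment that carries the start of a glutamate tRNA (αGlu, 3 libraries), or with an antisense of control (Ctr, 3 libraries). Both groups received the same lipofection and were afterwards exposed to IL-4 and IL-13, the cytokines that drive the anti-inflammatory M2 state. No M0 or M1 library belongs to this comparison, the fragment itself is not measured by mRNA libraries, and mice of both sexes were used, without the sex for each library. The study counts preparations from different animals as replicates of primary cells, so the p-values measure the spread between 3 such preparations per group.

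In this system, ATP leaving stressed or dying cells opens P2X channels, and at high levels P2X7 feeds the NLRP3 inflammasome. P2Y receptors sense ATP and UTP (P2Y2), UDP (P2Y6), ADP (P2Y12) or UDP-sugars (P2Y14). CD39, the product of Entpd1, strips ATP and ADP to AMP, and CD73, the product of Nt5e, converts AMP into adenosine. Adenosine then raises cAMP through the Gs-coupled receptors encoded by Adora2a and Adora2b, which restrains inflammatory cytokine output.

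The antisense and the sequence stretch it targets are shown because they define the αGlu treatment. This stretch is not the whole fragment, since the study describes longer fragments in islet cells. The sequence of the control antisense is not shown. Both are written 5′ to 3′ in DNA letters, as in the oligonucleotide list of the study. Capitals in the target mark the bases that a perfect duplex with the antisense covers, from base 2 to base 21 of 21.

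Antisense: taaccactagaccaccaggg
Target: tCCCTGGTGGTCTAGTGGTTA

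Total exon reads ranged from 17912831 to 30386653 per library, with the lowest in αGlu 1. Across the 11933 genes tested, log2 CPM (read counts scaled to library size) of αGlu 1 correlated with Ctr libraries at a Pearson r of 0.966 to 0.982, but with αGlu 2 and αGlu 3 at 0.929, while αGlu 2 and 3 correlated with each other at 0.992. The points of these correlations are genes and not replicates. αGlu 1 thus stood nearer to Ctr than to its own group. Since the fragment was not measured in these libraries, neither the label of αGlu 1 nor the degree of inhibition in it could be checked, and means over all 3 αGlu libraries join unlike libraries. Fold changes are given with and without it. As αGlu 1 was singled out from these same data, small p-values without it follow in part from that choice. Without αGlu 1, 49.1% of 12340 genes had an adjusted p under 0.1 with edgeR. The p-values given without αGlu 1 are therefore descriptive only. All 7 macrophage markers were above 1 CPM in every library. Their summed level was 11819 to 13382 CPM in Ctr and 12582 to 18544 CPM in αGlu, with Lyz2 as the largest part. In αGlu 2 and 3, Adgre1, Csf1r, Itgam, Fcgr1 and Lyz2 were above every Ctr library, whereas Cd68 and Mertk were below. Cd68 was at 1809, 2063 and 2049 CPM in Ctr, against 1990, 1237 and 1144 CPM in αGlu 1, 2 and 3.

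The adenosine receptors had the largest differences among the members, in αGlu 2 and αGlu 3 but not in αGlu 1. The ADP receptor gene P2ry12 was higher in all 3 αGlu libraries. In contrast, P2rx4, the most abundant member in Ctr, differed little, and Entpd1 was lower in αGlu 2 and 3. With edgeR's quasi-likelihood test, none of the 9 tested members had an adjusted p under 0.1. The background for this call, which also asks for an absolute log2 fold change above 1, was 0% of the 11933 genes. At an unadjusted p under 0.05 there were 3 members of 9 (P2ry12, Adora2a and Adora2b), against 24.7% of all tested genes (2943 genes). Limma-voom called 0 genes likewise, and 3101 genes (26% of those tested) had an unadjusted p under 0.05 there. These same 3 members, each higher, were called with DESeq2, against 8.13% of the genes with an adjusted p (4.21% higher and 3.92% lower). The median log2 fold change of the 9 members was 0.24, beside 0.016 over all tested genes.

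Levels of different genes are compared in TPM, which accounts for transcript length. In Ctr, P2rx4 was the most abundant member at 194 ± 1.08 TPM (SD, n = 3). P2ry6 at 153 ± 17 TPM and Entpd1 at 141 ± 17.5 TPM followed, and the ranges of these neighbours overlapped. Next came P2rx7 at 41.7 ± 5.72, P2ry14 at 25.7 ± 7.73, P2ry2 at 12.8 ± 3.03 and Adora2b at 8.37 ± 1.15 TPM. P2ry12 stood at 2.06 ± 1.10 and Adora2a at 0.581 ± 0.194 TPM, and Nt5e was at 0 in all Ctr libraries. From Entpd1 downward, no neighbours in this order overlapped among the Ctr libraries. In αGlu the order changed at the top and in the middle, with P2ry6 first at 231 ± 77.2 TPM and Adora2b now above P2ry14 and P2ry2 at 37.5 ± 28.4 TPM. There, P2ry6 overlapped with P2rx4, P2rx7 with Adora2b, Adora2b with P2ry14, P2ry2 with P2ry12, and P2ry12 with Adora2a. Without αGlu 1, the means of αGlu 2 and 3 were 276 TPM for P2ry6, 192 TPM for P2rx4 and 78.4 TPM for Entpd1. Adora2b at 53.8 TPM then stood level with P2rx7 at 52.5 TPM, and Adora2a at 9.72 TPM with P2ry12 at 8.68 TPM. M2 Mφs of both groups thus carried mainly P2rx4, P2ry6 and Entpd1 transcripts.

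**Figure D1:**
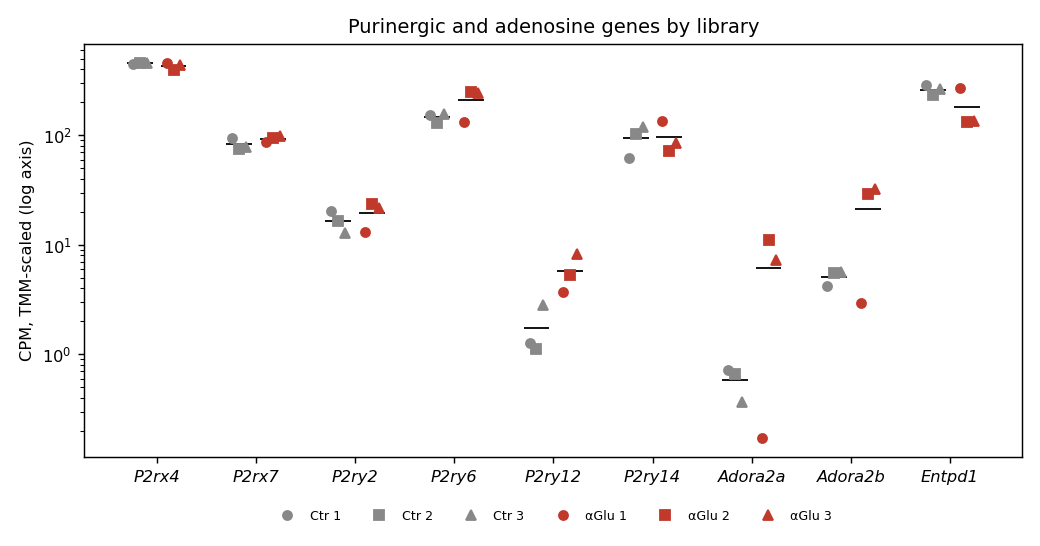
Level of 9 members in each of the 6 libraries, in CPM scaled with TMM factors on a log axis (grey Ctr, red αGlu, shape for the library number, black line for the group mean). Nt5e, with 0 reads in 4 libraries, is not drawn, and the αGlu 1 point lies with or below the Ctr points for Adora2a and Adora2b, whereas for P2ry12 all 3 αGlu points, at 3.73 to 8.33 CPM, lie above the highest Ctr point of 2.83 CPM.

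Among the P2X channels, P2rx4 (ENSMUSG00000029470), which conducts calcium in response to ATP and is found largely on lysosomes of Mφs, was at 444, 459 and 453 CPM in Ctr 1, 2 and 3. It was at 459, 397 and 433 CPM in αGlu 1, 2 and 3. αGlu 2 and 3 lay below every Ctr library and αGlu 1 was level with Ctr 2, all within a narrow band. Its log2 fold change was -0.07 ± 0.10 (SE) at an edgeR adjusted p of 0.671, with a 95% interval of -0.33 to 0.18, and with library size as the only scaling it was 0.011, of opposite sign. P2rx7 (ENSMUSG00000029468), whose channel opens only at high ATP, was at 93.6, 75.3 and 78.6 CPM in Ctr, against 86.0, 94.0 and 99.3 CPM in αGlu. Ctr 1 reached into the αGlu values, so the groups overlapped. The log2 fold change was 0.17 ± 0.11 (adjusted p 0.347), within -0.10 to 0.45. P2rx7 and P2rx4 are neighbours on the plus strand of chromosome 5 (GRCm38), P2rx7 at chr5:122643911-122691432 and P2rx4 at chr5:122707544-122729738, with no protein-coding gene in the 16111 bases between them.

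P2ry6 (ENSMUSG00000048779), the UDP receptor that promotes phagocytosis in microglia, was at 154, 129 and 156 CPM in Ctr. It was at 132, 247 and 244 CPM in αGlu 1, 2 and 3. αGlu 1 was thus inside the Ctr range and the other αGlu libraries well above it. Its fitted log2 fold change was 0.50 ± 0.25 (SE) at an adjusted p of 0.261, and 0.74 ± 0.11 without αGlu 1 (edgeR adjusted p 0.00260), which is short of the fold limit. P2ry2 (ENSMUSG00000032860), the ATP and UTP receptor involved in the recruitment of phagocytes toward dying cells, was at 20.2, 16.6 and 12.9 CPM in Ctr, against 13.2, 23.8 and 21.6 CPM in αGlu. It had the same arrangement, with αGlu 1 near the lowest Ctr library, at a log2 fold change of 0.24 ± 0.27 (adjusted p 0.577) and 0.45 ± 0.18 without αGlu 1 (edgeR adjusted p 0.0950). These genes are also neighbours, P2ry6 at chr7:100937630-100974649 and P2ry2 at chr7:100996568-101012866 on the minus strand, 21918 bases apart with no protein-coding gene between them.

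P2ry12 (ENSMUSG00000036353), the Gi-coupled ADP receptor known from platelets and microglia, had low counts, with 28, 27 and 61 reads in Ctr and 65, 167 and 227 reads in αGlu. This corresponded to 1.27, 1.13 and 2.83 CPM in Ctr and to 3.73, 5.26 and 8.33 CPM in αGlu. All αGlu libraries were above all Ctr libraries, and P2ry12 was the only tested member, 1 of 9, with no overlap between groups. Over all tested genes, 30.2% showed no overlap, so this count is below the background share. Without Ctr 1 there were 2 such members, as P2rx7 then joined. The log2 fold change of P2ry12 was 1.73 ± 0.47 (SE, edgeR adjusted p 0.157), with a 95% interval of 0.58 to 2.88. It was 1.96 ± 0.42 without αGlu 1 (adjusted p 0.0124) and DESeq2 gave an adjusted p of 0.0119. Limma-voom gave 0.136 and edgeR with the replicate number as a block 0.131. Summed over libraries, 459 αGlu reads stood against 116 Ctr reads, which is 3.49 times the CPM (95% interval 2.84 to 4.32, exact, for counting error alone). Platelet and megakaryocyte markers summed to 5.77 to 11.2 CPM in Ctr and to 5.51 to 6.14 CPM in αGlu. Of these 5 genes, Itga2b, Ppbp and Treml1 had reads in every library. A part of such cells in the P2ry12 reads was not tested.

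P2ry14 (ENSMUSG00000036381), the receptor for UDP-glucose, lies near P2ry12 in a cluster of related receptors on chromosome 3, at chr3:59113855-59153618, while P2ry12 is at chr3:59216272-59262871. It was at 61.5, 103 and 119 CPM in Ctr, against 136, 71.9 and 84.4 CPM in αGlu 1, 2 and 3. The highest of all values was that of αGlu 1, and the groups overlapped widely. The log2 fold change was 0.043 ± 0.33 (SE, adjusted p 0.942), within -0.76 to 0.85, and it took the opposite sign without αGlu 1 (-0.28) or without Ctr 1 (-0.18). Between these genes lies P2ry13 (at chr3:59207892-59210882), a further ADP receptor gene that is no member. It was at 3.32, 2.80 and 6.45 CPM in Ctr, against 7.17, 14.2 and 25.2 CPM in αGlu, with no overlap and a log2 fold change of 1.89 ± 0.54 (edgeR adjusted p 0.159), and of 2.23 ± 0.39 without αGlu 1 (adjusted p 0.00552). The ADP receptor genes of the cluster were thus both higher in every αGlu library, whereas P2ry14 was not. Med12l runs through this cluster on the opposite strand and shares 9 exonic bases with P2ry12 and none with P2ry13 or P2ry14. It had 276 reads in all 6 libraries together, compared with 575 for P2ry12. The libraries were stranded, but whether the counting used strand was not given in the sources used here.

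The promoter of P2ry12 is shown as the member that was higher in every αGlu library, beside those of Adora2b and Entpd1, which differed in opposite directions in αGlu 2 and 3. RefSeq (GRCm38.p6) entries of 300 bases, from 250 before the start site, were found for 8 of the 10 members. The letters searched on both strands were TGACG (a CRE core, part of the full CRE TGACGTCA), TGANTCA (AP-1), GGGNNNNNCC (κB), TTCNNNNGAA (STAT), GAGGAA (PU.1 core) and ACGTG (HIF core). Capitals mark every match. P2ry12 lies on the minus strand at chr3:59262936-59263235, Adora2b on the plus strand at chr11:62248734-62249033 and the first of 2 Entpd1 entries on the plus strand at chr19:40612116-40612415.

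P2ry12: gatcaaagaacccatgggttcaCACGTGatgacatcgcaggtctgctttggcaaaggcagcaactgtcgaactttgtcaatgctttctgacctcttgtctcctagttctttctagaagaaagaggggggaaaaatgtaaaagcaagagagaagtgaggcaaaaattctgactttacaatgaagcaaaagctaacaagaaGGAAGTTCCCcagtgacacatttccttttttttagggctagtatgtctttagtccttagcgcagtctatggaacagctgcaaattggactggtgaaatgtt
Adora2b: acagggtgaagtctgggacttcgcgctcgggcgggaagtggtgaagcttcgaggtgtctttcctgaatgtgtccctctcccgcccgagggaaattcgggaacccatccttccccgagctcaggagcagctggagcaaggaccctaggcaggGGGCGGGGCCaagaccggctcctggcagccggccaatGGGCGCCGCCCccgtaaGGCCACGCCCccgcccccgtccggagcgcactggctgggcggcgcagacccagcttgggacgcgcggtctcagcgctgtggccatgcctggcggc
Entpd1: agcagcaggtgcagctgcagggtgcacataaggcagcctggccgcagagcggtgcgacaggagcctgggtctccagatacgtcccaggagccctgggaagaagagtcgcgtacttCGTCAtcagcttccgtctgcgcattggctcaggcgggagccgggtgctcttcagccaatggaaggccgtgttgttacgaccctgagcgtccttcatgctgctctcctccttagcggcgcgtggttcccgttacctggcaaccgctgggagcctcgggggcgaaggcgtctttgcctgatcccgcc

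The P2ry12 window held 1 κB match and 2 HIF core matches, which overlap as the same letters on both strands. The Adora2b window held 4 κB matches, partly overlapping, and none of the other motifs, and the Entpd1 window held 1 CRE core. Over all 32851 promoters of this length, 50.8% held a κB match, 19.6% a HIF core and 20.8% a CRE core, so such matches are common. The fixed letters of the κB pattern are G and C only. These bases made up 70.0% of the Adora2b window, 64.0% of the Entpd1 window and 42.3% of the P2ry12 window. Their median share over all promoters was 52.7%. The full CRE was present in 1.79%, AP-1 in 7.81%, STAT in 6.95% and the PU.1 core in 28.3% of promoters. A match is a string of letters in this window and no measured site.

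Adora2b (ENSMUSG00000018500, chr11:62248984-62266453), the low-affinity adenosine receptor gene, was at 4.22, 5.56 and 5.61 CPM in Ctr 1, 2 and 3. It was at 2.92, 29.0 and 32.2 CPM in αGlu 1, 2 and 3. αGlu 2 and 3 were thus 5.96 times the Ctr mean on average, whereas αGlu 1 was below every Ctr library, at 0.57 of that mean. The log2 fold change over all libraries was 2.06 ± 0.80 (SE, edgeR adjusted p 0.190), with a 95% interval of 0.11 to 4.01. Without αGlu 1 it was 2.57 ± 0.14 (adjusted p 6.33e-05).

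Adora2a (ENSMUSG00000020178, chr10:75316877-75334784), the high-affinity adenosine receptor gene that is induced by inflammatory stimuli in Mφs, had the widest spread. It had 16, 16 and 8 reads in Ctr, and 3, 351 and 200 reads in αGlu 1, 2 and 3. In CPM this was 0.727, 0.669 and 0.371 for the Ctr libraries, compared to 0.172, 11.05 and 7.34 for αGlu. αGlu 1 again had the lowest value of all libraries, and αGlu 2 and 3 averaged 15.6 times the Ctr mean. The log2 fold change was 3.39 ± 1.20 (SE, edgeR adjusted p 0.177), with a 95% interval of 0.45 to 6.34, and 3.94 ± 0.32 without αGlu 1 (adjusted p 0.000286). DESeq2, on all libraries, gave adjusted p-values of 0.0249 for Adora2a and 0.0511 for Adora2b. Limma-voom gave 0.414 and 0.349. EdgeR with the replicate number as a block gave 0.314 and 0.268, at log2 fold changes of 2.72 and 1.60. Among αGlu libraries the SD of log2 CPM was 2.99 for Adora2a and 1.93 for Adora2b, larger than for 99.7% and 98.3% of the tested genes, respectively. In TPM, Adora2b exceeded Adora2a in every library, by 9.65, 13.8 and 25.1 times in Ctr and by 28.2, 4.35 and 7.28 times in αGlu 1, 2 and 3. The ratio was lowest in αGlu 2 and 3, but αGlu 1 lay above the Ctr libraries.

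Entpd1 (ENSMUSG00000048120, chr19:40612366-40741602), encoding CD39, was at 287, 231 and 264 CPM in Ctr. It was at 272, 133 and 136 CPM in αGlu 1, 2 and 3. αGlu 1 lay inside the Ctr range, and the other αGlu libraries averaged 0.517 of the Ctr mean. The log2 fold change was -0.53 ± 0.30 (SE, edgeR adjusted p 0.302), within -1.27 to 0.21, and -0.96 ± 0.11 without αGlu 1 (adjusted p 0.00125), just short of the fold limit. Nt5e (ENSMUSG00000032420, chr9:88327197-88372092), encoding CD73, had 0 reads in Ctr 1, 2 and 3 and in αGlu 1, which allows up to 0.125 to 0.172 CPM per library. It had 3 reads in each of αGlu 2 and 3, or 0.0944 and 0.110 CPM. Each of these values is under the limit for the other libraries. Summed over libraries, 6 αGlu reads stood against 0 Ctr reads, for which the lower 95% limit of the CPM ratio was 1.04. Both read totals come from so few reads that no fold is given, and intervals and limits cover counting error only. In bulk libraries, fewer cells carrying a transcript and less of it per cell cannot be told apart.

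**Figure D2:**
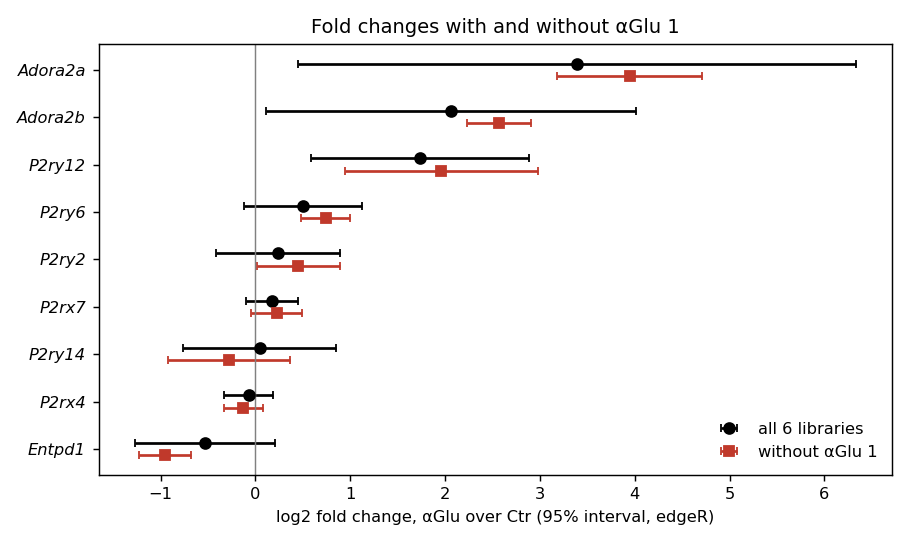
Log2 fold change (αGlu over Ctr) of the 9 tested members with 95% intervals from edgeR's quasi-likelihood fit, with all 6 libraries (black circles) and without αGlu 1 (red squares). The intervals of Adora2a and Adora2b narrow most, from 0.45 to 6.34 and from 0.11 to 4.01 with all libraries to 3.18 to 4.71 and 2.23 to 2.90 without αGlu 1.

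Seen over all members, αGlu 1 was inside the Ctr range for 4 of the 9 tested genes, above it for 3 and below it for 2. For 7 members αGlu 2 and 3 were both outside the Ctr range on one side and αGlu 1 was not beyond the range on that side. The same arrangement held for 35.6% of all tested genes. The position of αGlu 1 can be given as its distance from the Ctr mean divided by that of αGlu 2 and 3, in log2 CPM, where 0 is the Ctr mean and 1 the mean of αGlu 2 and 3. It was 0.591 for P2ry12 and 0.283 for P2rx7, the members of the 9 for which αGlu 1 lay on the side of its group. It was -0.068 for Entpd1, -0.180 for P2rx4, -0.189 for P2ry6, -0.305 for Adora2b, -0.356 for Adora2a, -0.638 for P2ry2 and -2.58 for P2ry14. Without αGlu 1, 6 members had an adjusted p under 0.1, beside 49.1% of 12340 genes, and 3 of them, Adora2a, Adora2b and P2ry12, also passed the fold limit and were higher. The background for this stricter call was 18.6% of 12340 genes, with 8.05% higher. Of the 9 tested members, 8 had no overlap in that comparison, P2ry14 being the exception, beside 65.9% of all genes.

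**Figure D3:**
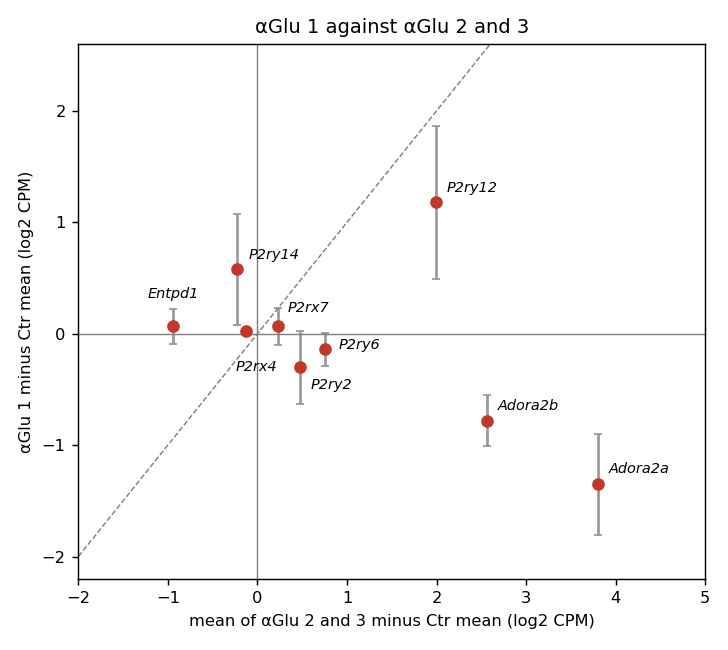
Distance of αGlu 1 from the Ctr mean (vertical axis) against that of the mean of αGlu 2 and 3 (horizontal axis), in log2 CPM, for the 9 tested members, with bars for the SD of the Ctr libraries (n = 3) and a dashed line at equal distances. P2ry12, at 1.99 and 1.18, is the member nearest to that line among those with a horizontal distance above 1, whereas Adora2a and Adora2b lie below 0 on the vertical axis.

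Further genes of the system were read from a list of 76, of which 56 were tested and 0 were called by edgeR. At an unadjusted p under 0.05 there were 9 higher and 9 lower, where the background was 12.7% and 11.9% of all genes. Of these 56, DESeq2 called 13, 10 higher and 3 lower, where the background was 8.13% of the genes with an adjusted p. Without αGlu 1, edgeR called 17 of them, 11 higher and 6 lower, beside 18.6% of all genes. Both also called Gja1, a gap junction gene outside the 56, which had 4, 4 and 5 reads in Ctr and 1, 947 and 1491 reads in αGlu and so passed edgeR's low-count filter only without αGlu 1. The median log2 fold change of the list was -0.0015. Genes with no overlap between groups numbered 11 higher and 12 lower (background 14.2% and 15.9%), and 7 of these with an absolute log2 fold change above 1 and at least 1 CPM are named here.

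Other nucleotide receptors went in both directions. P2ry1, the Gq-coupled ADP receptor gene, was at 39.5, 33.5 and 35.4 CPM in Ctr, against 24.03, 4.28 and 6.31 CPM in αGlu. Every αGlu library was lower, with a log2 fold change of -1.67 ± 0.64 (SE, edgeR adjusted p 0.190), and of -2.78 ± 0.18 without αGlu 1 (adjusted p 0.000128). It therefore went opposite to the other ADP receptor genes P2ry12 and P2ry13. P2rx5, a further ATP-gated channel gene, was at 3.41, 4.05 and 3.48 CPM in Ctr, against 1.89, 0.850 and 0.477 CPM in αGlu (log2 fold change -1.80 ± 0.49, adjusted p 0.157, and -2.44 without αGlu 1, adjusted p 0.00179). Adora3, a further adenosine receptor gene named after its values were seen, was near the low-count limit. It was at 0.273, 0.251 and 0.464 CPM in Ctr, against 0.287, 0.598 and 0.954 CPM in αGlu, and the groups overlapped. Its log2 fold change was 0.92 ± 0.53 (edgeR adjusted p 0.301), and 1.22 ± 0.44 without αGlu 1 (adjusted p 0.0716). P2rx1, P2rx2, P2rx3, P2rx6, P2ry4, P2ry10 and Adora1 had too few reads to be tested.

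Of 14 other genes, grouped as ectonucleotidases by gene family or related activity and not by site of action, 9 were tested. Enpp4, which hydrolyses nucleotides at the cell surface, was at 1.82, 4.05 and 6.73 CPM in Ctr, against 9.64, 24.96 and 24.8 CPM in αGlu, again with no overlap (log2 fold change 2.24 ± 0.57, edgeR adjusted p 0.156, and 2.56 without αGlu 1, adjusted p 0.00383). Cd38 and Acpp were chosen after their values were seen. Cd38, an ecto-enzyme that consumes NAD, was at 0.636, 2.42 and 2.04 CPM in Ctr, against 0.918, 107 and 79.7 CPM in αGlu. Acpp, an acid phosphatase that can also produce adenosine from AMP, was at 12.5, 11.99 and 7.93 CPM in Ctr, against 8.43, 59.5 and 29.6 CPM in αGlu. For both, αGlu 1 lay inside the Ctr range and the other αGlu libraries far above it, as for P2ry6. EdgeR's adjusted p-values were 0.160 for Cd38 and 0.206 for Acpp with all libraries. Without αGlu 1 the log2 fold changes were 5.76 for Cd38 (adjusted p 0.000119) and 2.04 for Acpp (adjusted p 0.00377). DESeq2, on all libraries, gave adjusted p-values of 0.00811 and 0.0839, and limma-voom gave 0.485 and 0.307.

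Genes that handle nucleosides inside the cell or carry them across its membrane differed in both directions. The background for genes without overlap was 14.2% higher and 15.9% lower of all tested genes. Of 9 tested genes of adenosine metabolism 1 was higher and 2 were lower without overlap. Of 4 tested nucleoside transporters 2 were higher and 1 was lower without overlap. Slc29a1, the main equilibrative transporter that takes up adenosine, was the lower one and is named after its values were seen. Its log2 fold change was -0.67 with all libraries and -0.96 without αGlu 1 (edgeR adjusted p 0.000933), short of the fold limit. Ampd3 and Slc29a3, also named after their values were seen, overlapped between groups. Without αGlu 1, edgeR called Ampd3 higher (log2 fold change 1.54, adjusted p 0.000354) and Slc29a3 lower (-1.06, adjusted p 0.00216). Of 4 tested genes of nucleotide release 1 was higher without overlap, beside the same background of 14.2%.

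Genes downstream of the receptors were also mixed. Nlrp3, the inflammasome sensor that acts after P2X7, was at 11.9, 7.98 and 14.2 CPM in Ctr, against 14.97, 73.3 and 88.3 CPM in αGlu (log2 fold change 2.38 ± 0.65, edgeR adjusted p 0.157, and 2.83 without αGlu 1, adjusted p 0.000261). The other inflammasome genes of the list are named to complete it, after their values were seen. The adaptor gene Pycard was lower in every αGlu library, and Casp1, Gsdmd, Il18 and Nek7 overlapped between groups. Without αGlu 1 the log2 fold changes were -0.52 for Pycard, -0.43 for Nek7, -0.42 for Casp1, 0.32 for Gsdmd and 0.48 for Il18. The edgeR adjusted p-values of that fit were 0.00276, 0.0123, 0.0931, 0.108 and 0.292 in the same order. On the cAMP side 20 of 23 genes were tested, with 2 higher and 5 lower without overlap. The background was 14.2% and 15.9% of all tested genes. Creb5, a CREB family factor, was at 34.5, 46.8 and 49.9 CPM in Ctr, against 59.2, 108 and 103 CPM in αGlu (log2 fold change 1.04 ± 0.26, adjusted p 0.156, and 1.27 without αGlu 1, adjusted p 0.00139). Adcy3, an adenylate cyclase, was at 15.04, 17.2 and 14.4 CPM in Ctr, against 11.4, 3.97 and 7.23 CPM in αGlu (log2 fold change -1.06 ± 0.37, adjusted p 0.174, and -1.49 without αGlu 1, adjusted p 0.00493).

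Crem and Pde4b, known as cAMP-responsive genes and chosen after their values were seen, were high in αGlu 2 and 3 only, with αGlu 1 within the Ctr range for Crem and below it for Pde4b. Crem was at 8.36, 7.82 and 7.05 CPM in Ctr, against 7.17, 32.2 and 32.4 CPM in αGlu. Pde4b, a phosphodiesterase that degrades cAMP, was at 11.7, 9.95 and 10.02 CPM in Ctr, against 8.89, 152 and 161 CPM in αGlu. Their edgeR adjusted p-values were 0.17 and 0.16 with all libraries, and 4.19e-05 and 7.38e-06 without αGlu 1. Other genes of the cAMP list, also chosen after their values were seen, went the other way. Gnas was at 577, 593 and 659 CPM in Ctr, against 500, 390 and 370 CPM in αGlu. Without αGlu 1 the log2 fold changes were -0.69 for Gnas, -0.93 for Adcy7, -1.31 for Adcy9 and -1.52 for Rapgef3. On this list edgeR then called 3 genes higher and 3 lower, beside 8.05% and 10.5% of all genes.

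**Figure D4:**
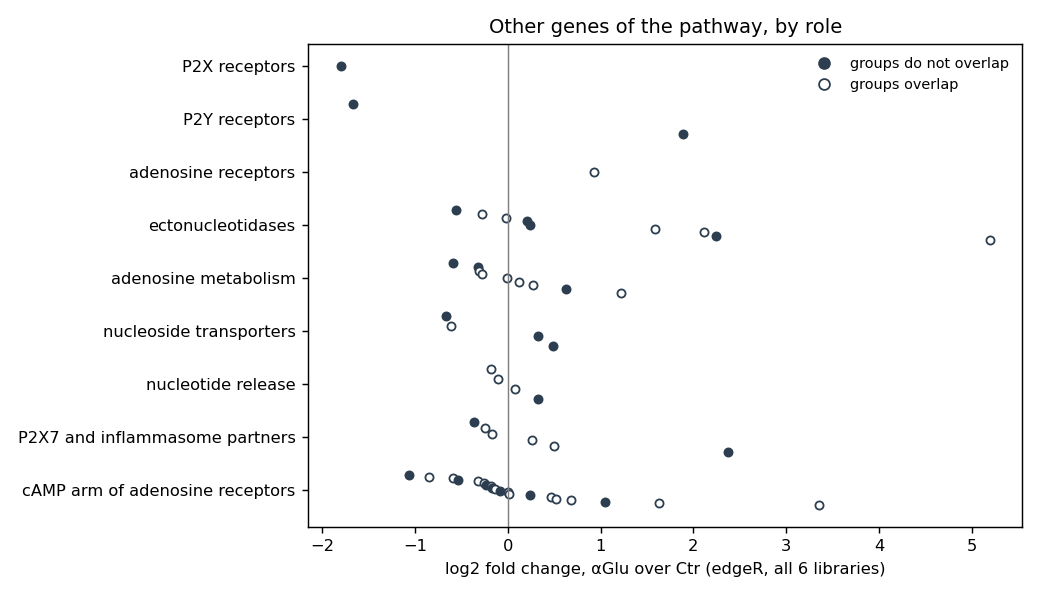
Log2 fold change (αGlu over Ctr, edgeR, all 6 libraries) of the 56 tested genes of the wider system, one point per gene, grouped by role, with filled points for the 23 genes whose groups do not overlap. Most points lie near 0, and the farthest is Cd38 at 5.19, an open point because αGlu 1 lay within the Ctr range.

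Markers of other cell types are given for the libraries that carry these differences. Csf3r made up nearly all of the neutrophil list, which summed to 107 to 160 CPM in Ctr and to 186 to 609 CPM in αGlu. The defining neutrophil gene Ly6g had no read, and S100a8, S100a9, Camp, Ngp, Mpo and Elane were each at most at 2.59 CPM. Summed levels in Ctr and αGlu were 0.710 to 1.25 and 0.574 to 0.850 CPM for 5 dendritic cell genes, and 0.0836 to 0.139 and 0.172 to 0.283 CPM for 6 lymphocyte genes. They were 3.34 to 4.59 and 1.10 to 5.16 CPM for 5 mast cell and basophil genes, 18.9 to 25.5 and 8.83 to 21.3 CPM for 4 eosinophil genes, and 1.63 to 7.18 and 0.913 to 2.87 CPM for 5 fibroblast genes. The eosinophil sum joins unlike genes. Siglecf was at 8.72, 6.81 and 13.1 CPM in Ctr, against 3.67, 0.252 and 0.147 CPM in αGlu. Ccr3 was at 10.04, 11.8 and 11.97 CPM in Ctr, against 4.13, 11.9 and 21.2 CPM in αGlu. Xcr1 and Cd3g had no read. The 6 M2 markers summed to 2803 to 4507 CPM in Ctr and to 4011 to 6932 CPM in αGlu. Arg1 alone was at 24.3, 45.2 and 41.5 CPM in Ctr, against 23.5, 1886 and 1792 CPM in αGlu, the same split of the αGlu libraries as for Adora2a. Within that list Retnla and Mgl2 went the other way, with Retnla at 540, 245 and 289 CPM in Ctr, 101 CPM in αGlu 1 and 1 read in each of αGlu 2 and 3. The part of Csf3r-expressing or other cells in the results was not tested.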

How the data were processed

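Messenger RNA of 6 libraries (3 αGlu, 3 Ctr) was sequenced by the authors from Illumina stranded mRNA libraries, and the QIAGEN RNA-seq Analysis Portal was used for annotation and normalization. The submitters' processing notes name the build GRCm38; aligner settings, annotation release and strand use in counting are not given in the sources used here. The authors deposited, per gene and library, raw exon counts, RPKM, TPM, and a CPM that is a signal scaled by an effective library size. All 24 value columns matched a library. RPKM and the deposited CPM were not used here. Counts served for all tests and TPM for levels between genes.

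In edgeR 4.0.16 (R 4.3.3), filterByExpr with a minimum count of 10 and a minimum total of 15 kept 11933 genes. After TMM scaling, αGlu was compared with Ctr by the two-sided quasi-likelihood test, with no covariate and Benjamini-Hochberg adjustment over these genes. Calls needed an adjusted p below 0.1 with an absolute log2 fold change over 1. Each SE was derived from log2 fold change and F. CPM values are counts over TMM-scaled library sizes, and log2 CPM has a prior count of 2. Alternatives were DESeq2 1.42.0, limma-voom 3.58.1, other factors, filters and thresholds, the replicate number as a block, and each library left out. The models were run on simulated data with the spread of the Ctr libraries in both groups. Such data do not cover a library that stands apart as αGlu 1 did. Exact permutation of 3 and 3 libraries gives p-values of at least 0.1 and was not used. Positions came from GENCODE M21 (GRCm38), in which 41474 of the 41549 identifiers occurred.

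The members, the wider list and the markers were chosen from general knowledge with earlier results of these data known. Named beyond the 10 members were genes of the wider list without overlap, with an absolute log2 fold change above 1 and a mean of at least 1 CPM; for other genes of the list the text says so, and untested receptor genes were named by class. No libraries agreed within sampling noise (chi-square per gene at least 19.8), so all counted as separate samples.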

Additional observations from a re-analysis of the deposited data

How the results depend on the processing

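edgeR's quasi-likelihood test called 0 genes, 0 members and 0 further genes of the system under other scalings (RLE, upper quartile, library size), both other low-count filters, a threshold of 0.05 and without the fold limit, as did limma-voom. With DESeq2 the calls were 1117 genes (579 higher, 538 lower), 3 members and 14 further genes, Gja1 included. Leaving out 1 library gave 0 to 2290 genes (0 to 993 higher, 0 to 1297 lower), 0 to 3 members and 0 to 18 further genes (Gja1 included), each above 0 without αGlu 1 only. Members without overlap numbered 1 to 8 when a library was left out, and 2 without a low-count filter. The second was then Nt5e, whose αGlu 1 value comes from the prior count alone. Tested genes without overlap were 3599, and 4062 to 8131 with a library left out. The sign flipped for P2rx4 with library size alone (0.011) and for P2ry14 without Ctr 1 (-0.18) or αGlu 1 (-0.28), with 0.24 as its highest value when a library was left out. The other 7 tested members kept their sign under every alternative run.

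The study treats transfected Mφs as paired in another assay, but whether equal replicate numbers here mark one preparation is not stated. Correlations between the deviations of libraries 1, 2 and 3 of each group were 0.076, 0.065 and 0.15 for equal numbers, each the highest for its library. A replicate block in edgeR gave calls for 17 genes (9 higher, 8 lower) and 0 members. Depth limits Nt5e and the Ctr level of Adora2a, and 3 libraries per group with 1 standing apart limit every test, and what αGlu 1 represents could not be checked. For αGlu TPM, leaving out αGlu 1 was added after seeing the data. The cause of these differences between settings was not tested.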
